A study of Mus musculus and Homo sapiens with 16 samples.

Results

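The comparison set 3 libraries of sorted embryonic skin epithelium against 2 libraries of unsorted peeled epidermis, all 5 labelled heterozygous for Klf5, out of 10 RNA libraries and 16 samples in all. The members were chosen by their titles (RNAseq_Het and RNAseq_HFD_Het) and not by any measured value. The E17.5 Klf5+/- group came from C57BL/6 embryos at E17.5, shortly before birth: skin was treated with dispase, the epidermis was peeled off and dissociated with trypsin, and cells sorted as DAPI-, CD45- and Integrin A6+ were taken. A service provider made its poly(A) libraries. The HFD Klf5+/- group was also C57BL/6; its epidermis was peeled after dispase and ground in liquid nitrogen without any sort, and its libraries were made with a poly(A) module and a directional kit. The labels neither expand the letters HFD nor give a stage or age for that group. Stage, sorting, RNA isolation and library kit therefore differ together between the groups, and their contributions cannot be told apart. Each of the 5 libraries is labelled Klf5+/-; no wild type RNA was compared. Nothing in the labels states that replicate libraries stem from different animals. The p-values therefore rest on the spread among these 5 libraries, part of which may be technical.

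The epidermis renews itself from a basal layer that is anchored by integrins and hemidesmosomes and expresses Krt5 and Krt14. Cells that leave this layer switch to Krt1 and Krt10 and then assemble the cornified envelope, a shell of cross-linked proteins to which specialised ceramides are attached; this barrier is completed shortly before birth. Hair follicles and sebaceous glands grow out of the same epithelium, while fibroblasts, vessels, muscle and fat lie in or below the dermis. Integrin alpha 6 marks cells that touch the basement membrane, so a sort on it enriches basal cells, and the exclusion of CD45 removes blood-derived cells.

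Of 39179 genes, 16550 had enough counts to be tested. Relative to the HFD libraries, 5092 genes (30.8%) were higher in the E17.5 libraries and 5698 (34.4%) were lower (edgeR quasi-likelihood test, Benjamini-Hochberg adjusted p under 0.05), so that 65.2% of the genes tested were called in either direction. A test against a 2-fold difference called 1205 genes higher (7.28%) and 3255 lower (19.7%). These shares are the background against which every list is read. Scaling moved the balance: 47.2% of the calls were higher with the TMM scaling used here, 57.1% when libraries were scaled by their totals and 13.8% when they were scaled on a list of basal keratinocyte genes, an alternative chosen after seeing the data that moved the median of all genes from a log2 fold change of -0.02 to -0.62. Fold changes are on the log2 scale, E17.5 over HFD, each with its standard error (SE); levels are CPM, counts scaled to the library size after TMM.

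The groups were far apart, and libraries within a group were close. Spearman correlations over genes were 0.990 to 0.992 among the E17.5 libraries, 0.988 between the HFD libraries and 0.836 to 0.847 across the groups, and 78.7% of the genes tested had groups that did not overlap. The E17.5 libraries held 34965243 to 46445546 counts on genes and the HFD libraries 34286575 to 36984884. Several features of the libraries differed with the group. Reads on more than 1 gene had a share of 3.69 to 3.79% in the E17.5 libraries and of 1.07 to 1.14% in the HFD libraries. The median log2 fold change ran from -0.41 in the fifth of genes with the shortest exons to 0.34 in the fifth with the longest. The E17.5 libraries all had Xist, the RNA of the inactive X chromosome, at 811, 476 and 645 CPM, against 0 and 0.159 CPM in the HFD libraries. The Y-linked genes Ddx3y, Eif2s3y, Kdm5d and Uty lay between 0 and 0.0452 CPM at E17.5, against 22.8 to 125 CPM for HFD. The sex-linked pattern thus differed wholly with the group, and its part in the other results was not tested. Xist overlaps Tsix on the other strand, and whether reads were counted by strand is not stated in the sources used here.

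Klf5 itself (chromosome 14, 99298691 to 99313405, plus strand, mm10), a zinc-finger transcription factor of epithelia, was higher at E17.5. It stood at 167, 182 and 149.7 CPM in the E17.5 libraries and at 75.5 and 50.01 CPM in the HFD libraries (log2 change of 1.40 with an SE of 0.18, and adjusted p = 0.000121 by edgeR). The groups did not overlap. Itga6, the integrin subunit used in the sort, stood at 378, 354 and 329.7 CPM at E17.5 and at 325 and 237 CPM in the HFD libraries, a log2 fold change of 0.33 (SE 0.15) that did not pass the test (edgeR adjusted p = 0.075). The lowest E17.5 library lay just above the higher HFD library.

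Markers of cells that lie outside the epidermis were mostly higher in the HFD libraries. Endothelial, skeletal muscle and adipocyte RNA was nearly missing at E17.5, whereas other such lists kept some RNA there. In bulk RNA, fewer cells of a type and less RNA per cell cannot be told apart. All 12 endothelial markers fell, with summed levels of 2.88, 4.01 and 4.48 CPM at E17.5 and 690 and 731 CPM in the HFD libraries. Of 18 fibroblast markers 16 fell; their sums were 2204, 2147 and 2342 CPM at E17.5, against 28287 and 32638 CPM. Col3a1, a fibrillar collagen chain, stood at 8.37, 4.86 and 4.66 CPM at E17.5 and at 9403 and 10983 CPM in the HFD libraries, and its log2 fold change was -10.73 (SE 0.33, adjusted p = 2.92e-08 in edgeR). Twist2, a transcription factor of dermal fibroblasts, had no read at E17.5 and 77.7 and 89.8 CPM in the HFD libraries, at least 3647-fold lower at E17.5 (3 counts over the group as the floor). Postn, a matrix protein that is also on the basal list, made up the largest part of the fibroblast sum at E17.5, with 1012, 1028 and 1214 CPM, against 1981 and 2296 CPM. The single fibroblast marker that rose was Fbln1 (log2 fold change 0.44), named after its value was seen, and 0 rose without E17.5 replicate 1.

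Skeletal muscle and fat behaved alike. All 11 adipocyte markers tested fell, with sums of 8.47, 7.14 and 10.1 CPM at E17.5 and 1261 and 2282 CPM in the HFD libraries; the median log2 fold change was -10.25, or -9.87 with genes unread at E17.5 held at their floor. Adipoq, the fat hormone adiponectin, had no read at E17.5 and was at least 5312-fold lower there. Of 13 skeletal muscle markers tested, 12 fell, and their sums were 8.89, 7.22 and 8.88 CPM at E17.5 and 4058 and 1132 CPM in the HFD libraries. The HFD libraries differed from each other in muscle RNA: Acta1, skeletal muscle actin, stood at 0.0199, 0.0275 and 0 CPM at E17.5, against 1249.8 and 363 CPM in the HFD libraries. One such gene, Actc1, cardiac actin (0 CPM in every E17.5 library, 253 and 91.6 CPM in the HFD libraries, edgeR adjusted p = 0.0379), was no longer called without E17.5 replicate 1, 2 or 3 (edgeR adjusted p = 0.0533, 0.0593 and 0.0757). Of 11 smooth muscle and pericyte markers 9 fell, with sums of 235, 190 and 163 CPM at E17.5 and 798 and 665 CPM in the HFD libraries. Notch3, a receptor, was the single one that rose (log2 fold change 1.39, SE 0.17). Dermal papilla sums were 114, 70.7 and 63.0 CPM at E17.5, against 398 and 519 CPM, and 9 of 10 markers fell. Schwann cell sums were closer, at 247, 223 and 212 CPM against 255 and 282 CPM, with 9 of 12 markers lower and 1 higher. The 1 that rose was Erbb3, a receptor that keratinocytes also have. It made up 165.1, 155.2 and 149.1 CPM of the E17.5 sums and 101.3 and 104.8 CPM of the HFD sums. The closeness of the sums therefore does not show that other Schwann cell RNA was kept, and the list's median log2 fold change was -1.91.

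Blood-derived cells gave the same direction. Mast cell proteases stood out: Mcpt4 had 1 read in each E17.5 library and 245 and 237 CPM in the HFD libraries, a level 10532 times higher in the HFD libraries (exact 95% counting interval 3603 to 51077). Cpa3, the mast cell carboxypeptidase, stood at 0.338, 0.275 and 0.384 CPM at E17.5 and at 805 and 872 CPM in the HFD libraries. Together 15 of 17 macrophage, mast cell and neutrophil markers fell. Of 10 Langerhans and dendritic cell markers tested 9 fell, with sums of 52.8, 44.1 and 51.7 CPM at E17.5, against 213 and 216 CPM; Cd207, the defining marker of Langerhans cells, had too few reads to be tested. Of 13 T cell and NK markers tested 9 fell, 5 without HFD replicate 2.

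**Figure D1:**
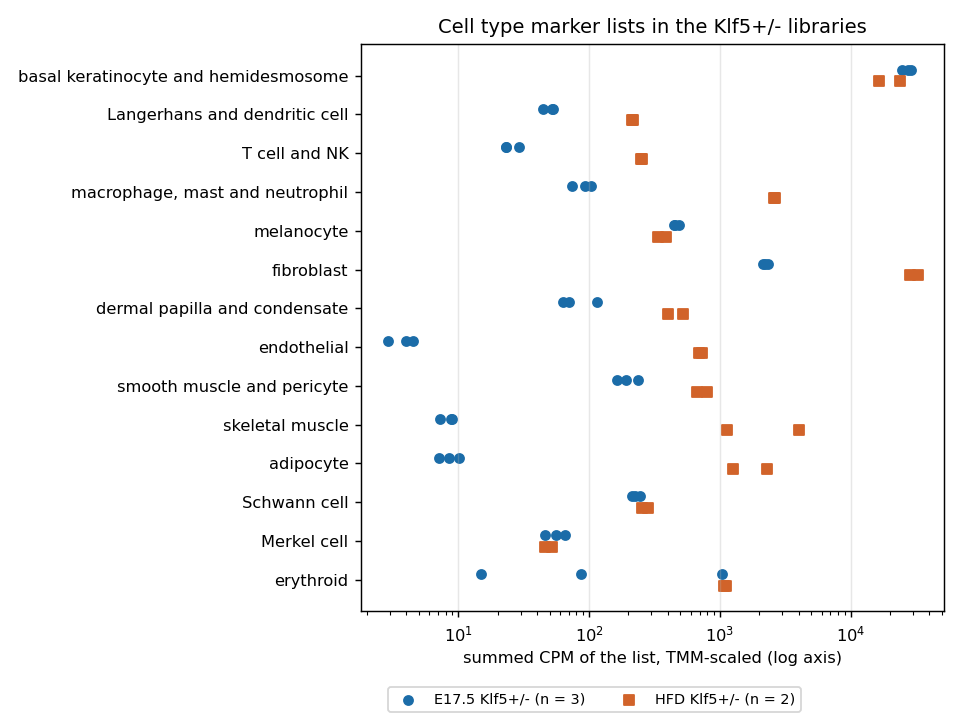
Summed TMM-scaled CPM of each list of cell type markers (log axis), with 1 point for each library: circles for E17.5 Klf5+/- (n = 3) and squares for HFD Klf5+/- (n = 2). Endothelial, skeletal muscle and adipocyte sums lie at 2.88 to 10.1 CPM at E17.5 and at 690 to 4058 CPM in the HFD libraries, while the erythroid sums of the E17.5 libraries spread from 14.9 to 1035 CPM.

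Melanocyte and Merkel cell lists each had members that rose and members that fell. Of 13 melanocyte markers, 4 rose and 3 fell, and the list's median log2 fold change of 0.33 turned to -0.29 under scaling on basal keratinocyte genes. Tyr, the enzyme that starts melanin synthesis, stood at 27.6, 28.9 and 31.1 CPM at E17.5 and at 14.7 and 9.53 CPM in the HFD libraries. Of 11 Merkel cell markers, 5 rose (3 without HFD replicate 2) and 2 fell. Atoh1, the transcription factor that specifies these touch-sensing cells, stood at 2.35, 2.88 and 3.05 CPM at E17.5 and at 0.628 and 0.0318 CPM in the HFD libraries (log2 change of 3.03 with an SE of 0.76, and adjusted p = 0.00705 by edgeR), whereas Chga, a protein of their secretory granules, fell by 3.69 (SE 0.19). Globin RNA varied within the E17.5 group: Hbb-bs, a beta globin, had 7.36, 44.6 and 561 CPM there and 633 and 596 CPM in the HFD libraries, and no globin was called. Without E17.5 replicate 3, 3 erythroid genes fell.

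Keratinocyte lists moved in different directions. Basal genes were level or moderately higher at E17.5: 11 of 22 rose, 4 fell and 7 were not called, with a median log2 fold change of 0.56 (1 rose and 5 fell, with a median of -0.01, when the libraries were scaled on this list itself), and the sums were 28918, 27491 and 24451 CPM against 23720 and 16368 CPM. Krt14, the basal type I keratin, stood at 6881, 6237 and 5771 CPM at E17.5 and at 6231 and 4607 CPM in the HFD libraries (edgeR adjusted p = 0.288), so the groups overlapped. Its partner Krt5 stood at 13021, 13256 and 10965 CPM at E17.5 and at 8463 and 4628 CPM in the HFD libraries (log2 change of 0.92 with an SE of 0.25, and adjusted p = 0.00895 by edgeR). The call on Krt5 rested on HFD replicate 2 (edgeR adjusted p = 0.0562 without it), as did much of the list, of which 6 members rose without that library. Trp63, the master regulator of stratified epithelia, rose (489, 477 and 432 CPM at E17.5, against 263 and 231 CPM, log2 fold change 0.92, SE 0.13). Fermt1, kindlin-1, which activates integrins, rose by 1.31 (SE 0.12). Itgb1, the integrin beta 1 chain, which dermal cells share, fell by 1.12 (SE 0.11).

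Suprabasal genes were divided, with Krt1, Krt10 and Dsp among those higher at E17.5. Of 17 suprabasal genes 9 rose and 6 fell, 5 and 4 of them past the 2-fold test, and the median log2 fold change of 0.47 turned to -0.15 under scaling on basal keratinocyte genes, where 4 rose and 7 fell. Krt1 (chromosome 15, 101845428 to 101850786, minus strand), the first keratin of differentiating cells, stood at 34118, 36358 and 28706 CPM at E17.5 and at 7380.0 and 8508 CPM in the HFD libraries (log2 change of 2.06 with an SE of 0.19, and adjusted p = 8.04e-06 by edgeR). Its partner Krt10 stood at 24861, 27866 and 22227 CPM at E17.5 and at 10022 and 8421 CPM in the HFD libraries (log2 fold change 1.44, SE 0.18). Neither gene's groups overlapped. Dsp, desmoplakin, which ties keratin to desmosomes, rose by 1.89 (SE 0.17). The 6 that fell were Serpinb2 (-2.16), Calml3 (-1.71), Krtdap (-1.48), Sbsn (-1.38), Skint6 (-1.18) and Dmkn (-1.09) on the log2 scale, of which Calml3, Krtdap, Sbsn and Dmkn were named after their values were seen. Krt10 and Dsp overlap genes on the other strand. Without the list members that have such an overlap, 6 rose and 4 fell, with a median log2 fold change of 0.10.

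The cornified envelope showed the opposite of Krt1 and Krt10. Of 38 genes tested, 32 fell and 3 rose; 31 fell past the 2-fold test, and the median log2 fold change was -3.92, against -0.02 over all genes. Flg (chromosome 3, 93273541 to 93293691, plus strand), the precursor of filaggrin, which packs keratin filaments and yields the natural moisturiser of the skin, stood at 241, 157 and 208 CPM at E17.5 and at 2041 and 3354 CPM in the HFD libraries (log2 change of -3.74 with an SE of 0.25, and adjusted p = 5.24e-06 by edgeR). Lor, loricrin, the main protein of the envelope, stood at 1092, 919.9 and 616 CPM at E17.5 and at 3174 and 2743 CPM in the HFD libraries (log2 fold change -1.76, SE 0.22). Asprv1, the protease that cuts profilaggrin, fell to 509, 556 and 495 CPM at E17.5, against 3682 and 4959 CPM. Lce1f, a late cornified envelope gene, stood at 0.457, 0.632 and 1.54 CPM there and at 199 and 313 CPM in the HFD libraries. The 3 that rose were Sprr2a1 (3.88), Tgm3 (1.94) and Evpl (1.63), named after their values were seen; Sprr2 and Lce genes have near-identical copies, which makes their counts less certain.

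**Figure D2:**
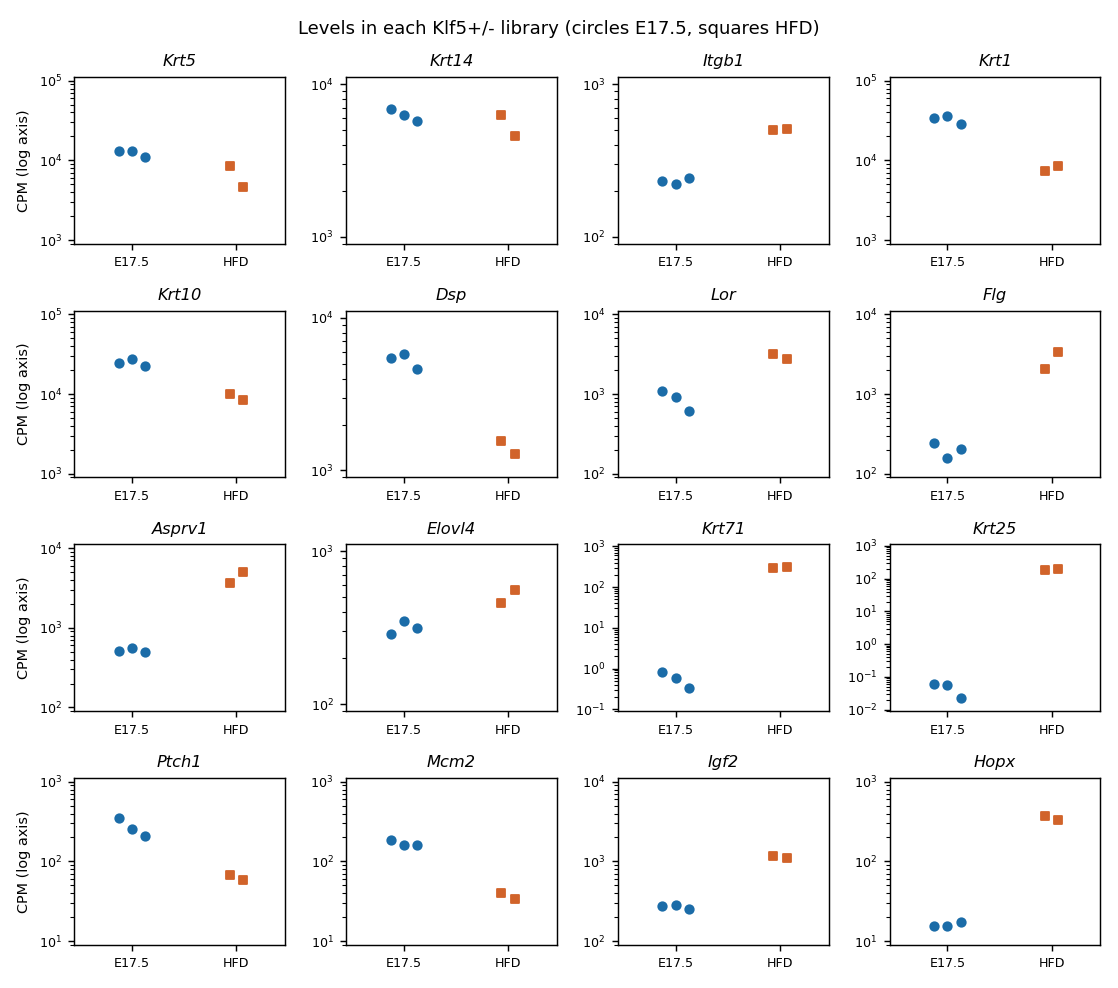
TMM-scaled CPM (log axis) of 16 genes in each library, circles for E17.5 Klf5+/- (n = 3) and squares for HFD Klf5+/- (n = 2). Krt14 is the 1 panel where the groups overlap; Krt1, Krt10 and Dsp are higher at E17.5 while Lor, Flg and Asprv1 are lower, and Krt71 and Krt25 are close to 0 at E17.5.

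Barrier lipid genes split by product. The acylceramides of the corneocyte are built from ultra-long fatty acids, and of 31 genes for making, modifying or attaching them 21 fell and 3 rose (10 and 2 past the 2-fold test, median log2 fold change -0.68). Elovl4, which makes the ultra-long chains, stood at 288, 349 and 315 CPM at E17.5 and at 461 and 559 CPM in the HFD libraries (log2 change of -0.68 with an SE of 0.14, and adjusted p = 0.0013 by edgeR). Elovl1, an elongase one step before it, fell by 2.00 (SE 0.17), although its span overlaps Cdc20 on the other strand. Aloxe3, a lipoxygenase of the pathway that oxidises the acylceramide, fell to 20.5, 14.1 and 13.0 CPM at E17.5, against 50.7 and 81.8 CPM. Sdr9c7, the dehydrogenase that acts after it, fell to 25.9, 28.8 and 25.5 CPM, against 135 and 157 CPM. The 3 that rose, Cyp4f39 (1.71), Ptplad1 (1.41) and Ephx3 (0.52), were named after their values were seen, and 5 rose without HFD replicate 2.

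Cholesterol genes went the other way: of 24 for synthesis and uptake, 16 rose and 3 fell, 6 and 1 past the 2-fold test, with a median log2 fold change of 0.68 that was 0.06 under scaling on basal keratinocyte genes, where 5 rose. Srebf2, the transcription factor that switches the pathway on, rose by 1.42 (SE 0.16), and Idi1, an isomerase of isoprenoid units, by 1.72 (SE 0.17). Hmgcs1, the synthase at the head of the pathway, stood at 327, 332 and 356 CPM at E17.5 and at 178 and 154 CPM in the HFD libraries (log2 change of 1.03 with an SE of 0.12, and adjusted p = 5.23e-05 by edgeR). Of 15 members with a promoter in the RefSeq table, only Hmgcs1 held the sterol response letters TCACNCCAC on either strand (6.67%), which 1.42% of the tested genes and 1.24% of all promoters hold; they stand in capitals in its promoter, chr13:119690169-119690268, GRCm38.p6, plus strand.
Hmgcs1: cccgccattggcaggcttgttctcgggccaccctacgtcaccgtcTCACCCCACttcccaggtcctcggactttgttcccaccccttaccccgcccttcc

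Most stress genes of the epidermis were lower at E17.5, although their summed levels were close. The sums were 2110, 1797 and 2151 CPM at E17.5 and 2441 and 2202 CPM in the HFD libraries. Of 17 stress keratins and alarmins tested 13 fell, 8 past the 2-fold test, and 1 rose. Krt16, a keratin of hyperproliferative epidermis, stood at 110.1, 81.4 and 69.6 CPM at E17.5 and at 271 and 438 CPM in the HFD libraries (log2 fold change -2.03, SE 0.25). Ereg, a growth factor of the EGF family, stood at 0.477, 0.302 and 0.656 CPM at E17.5 and at 30.1 and 64.8 CPM in the HFD libraries. The single gene that rose was Krt17, also a keratin of the early hair germ (log2 change of 0.44 with an SE of 0.14, and adjusted p = 0.0201 by edgeR), and its call was lost without E17.5 replicate 2 (edgeR adjusted p = 0.0764) or HFD replicate 2 (edgeR adjusted p = 0.167). Simple epithelial keratins divided: Krt13 stood at 3.92, 9.83 and 9.13 CPM at E17.5 and at 0.479 and 1.11 CPM in the HFD libraries, and Krt8 rose by 1.76 (SE 0.38), while Krt23 fell to 2.49, 4.34 and 3.39 CPM, against 284 and 319.6 CPM.

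**Figure D3:**
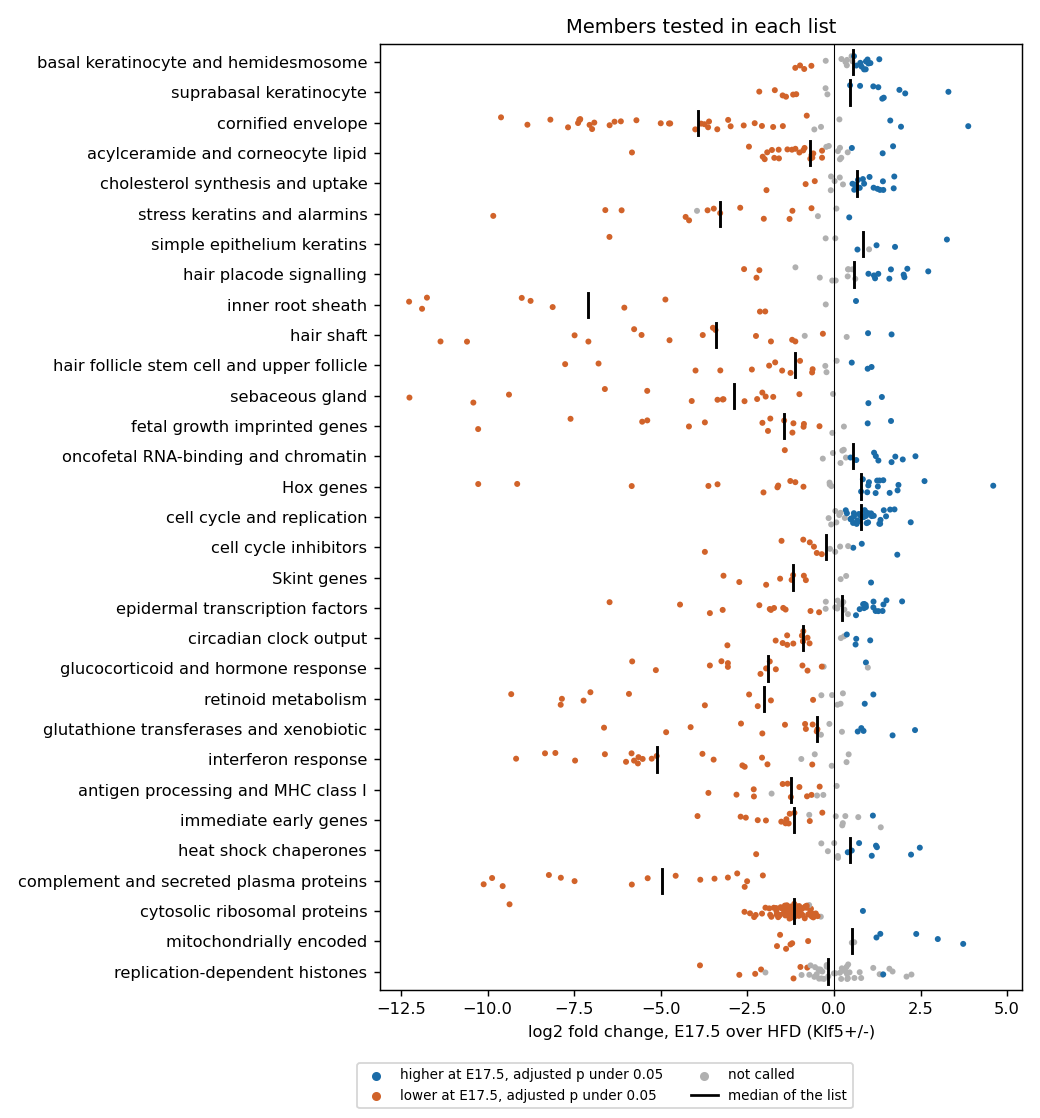
Log2 fold change, E17.5 over HFD in the Klf5+/- libraries, of every tested member of 31 lists; blue points were higher and orange points lower at E17.5 (adjusted p under 0.05), grey points were not called and bars are list medians. Cornified envelope, inner root sheath, interferon and complement members lie mostly left of 0 and cell cycle members right of it; under scaling on basal keratinocyte genes all points move left, and the medians of the basal, suprabasal, placode, oncofetal, transcription factor, heat shock and mitochondrial lists change sign.

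Genes that start hair follicles and genes of formed follicles differed. Of 22 genes of placode signalling, the dialogue that seeds new follicles, 10 rose and 3 fell; 6 rose and 3 fell past the 2-fold test, and the median log2 fold change of 0.57 was -0.01 under scaling on basal keratinocyte genes. Without HFD replicate 1, 13 rose and the median was 1.02. Ptch1, the receptor and target of sonic hedgehog, stood at 356, 256 and 210.2 CPM at E17.5 and at 67.6 and 58.5 CPM in the HFD libraries (log2 fold change 2.12, SE 0.22). Gli1, a further hedgehog target, had overlapping groups (134, 93.7 and 81.8 CPM against 102 and 111 CPM, edgeR adjusted p = 0.834). Dkk4, a Wnt inhibitor of the placode, rose by 2.72 (SE 0.35). Bmp4 (-2.60), Trps1 (-2.24) and, named after its value was seen, Ctgf (-2.15) fell. All 3 are also made by dermal cells, whose part was not tested. Bmp4 and Ctgf overlap genes on the other strand. Without the list members that have such an overlap, 8 rose and 1 fell, with a median log2 fold change of 1.05.

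Genes of the formed follicle were mostly lower at E17.5. Of 12 inner root sheath genes 10 fell and 1 rose, with a median log2 fold change of -7.09. Krt71, a keratin of the inner root sheath, stood at 0.815, 0.577 and 0.339 CPM at E17.5 and at 299.5 and 308 CPM in the HFD libraries (log2 change of -9.01 with an SE of 0.24, and adjusted p = 7.42e-09 by edgeR). Krt72 had no read at E17.5 and 18.8 and 12.6 CPM in the HFD libraries, at least 690-fold lower. The gene that rose was Gata3, a transcription factor that the interfollicular epidermis also uses (log2 fold change 0.64, SE 0.13). Without genes that overlap another on the other strand, 0 of this list rose and 10 fell. Of 19 hair shaft genes tested 15 fell and 2 rose. Krt35, a cortical hair keratin, had 1 read in each E17.5 library and 79.2 and 58.0 CPM in the HFD libraries, a level 3007 times higher there (exact 95% counting interval 1028 to 14586). Foxn1 (1.66), which starts hair keratin expression, and Dsc2 (0.98), a desmosomal cadherin, rose and were named after their values were seen.

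Stem cell and gland markers also fell, with mixed members. Of 18 follicle stem cell and upper follicle genes tested, 12 fell and 3 rose; 5 fell past the 2-fold test. Cd34, which marks bulge cells and vessels alike, stood at 1.85, 0.632 and 2.55 CPM at E17.5 and at 169 and 213 CPM in the HFD libraries. Lgr5, a stem cell receptor, fell by 4.00 (SE 0.45), and Krt79, of the upper follicle, by 1.50 (SE 0.29). Lgr6 (0.97), Fst (0.51) and Gli2 (1.09) rose and were named after their values were seen, while 1 rose without HFD replicate 2. Of 18 sebaceous gland genes tested 15 fell, 12 past the 2-fold test. Awat1, which makes wax esters, had no read at E17.5 and 11.2 and 19.97 CPM in the HFD libraries, at least 676-fold lower. The 2 that rose are general lipid genes: Fasn, fatty acid synthase (234, 195 and 157 CPM against 61.2 and 88.4 CPM, log2 fold change 1.38, SE 0.21), and Fabp5, a fatty acid carrier of keratinocytes (log2 fold change 0.99, SE 0.16).

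Proliferation genes were higher at E17.5. Of 40 cell cycle and replication genes 33 rose and none fell, 7 of them past the 2-fold test, with a median log2 fold change of 0.79; under scaling on basal keratinocyte genes 7 rose and 2 fell, with a median of 0.19. Mcm2, part of the replicative helicase, stood at 186, 162 and 163 CPM at E17.5 and at 39.7 and 33.5 CPM in the HFD libraries (log2 change of 2.22 with an SE of 0.13, and adjusted p = 4.71e-07 by edgeR). Mki67, the proliferation antigen, stood at 454, 415 and 445 CPM at E17.5 and at 239 and 293 CPM in the HFD libraries (log2 fold change 0.72, SE 0.13). Among 14 cell cycle inhibitors tested, 3 rose and 7 fell; with the trend on exon length removed, 6 rose and 6 fell. Cdkn1c, the imprinted inhibitor p57, fell to 25.3, 31.5 and 30.0 CPM at E17.5, against 398 and 369 CPM (log2 fold change -3.73, SE 0.13), while Rbl1, the pocket protein p107, rose by 1.83 (SE 0.14). Rb1 (0.56) and Cdkn2b (0.80), named after their values were seen, rose as well.

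Fetal gene groups did not move as 1 block. Imprinted genes of fetal growth were mostly lower at E17.5: of 19 tested 15 fell and 2 rose, and 9 fell past the 2-fold test. Igf2, the fetal growth factor, stood at 279, 288 and 255 CPM at E17.5 and at 1178 and 1116 CPM in the HFD libraries (log2 change of -2.07 with an SE of 0.12, and adjusted p = 3.64e-07 by edgeR), and the growth-restraining RNA H19 fell by 1.20 (SE 0.20). Mest, a hydrolase-like gene of mesoderm, stood at 1.13, 1.099 and 1.36 CPM at E17.5 and at 232 and 236 CPM in the HFD libraries. Igf2 and Mest are known in mesenchyme, and the dermal marker sums above differ in the same direction; their part was not tested. Igf2, H19, Mest and Gnas (28.9, 26.6 and 24.8 CPM against 1096 and 1151 CPM) overlap genes on the other strand, and without such genes 7 imprinted genes fell. Phlda2 (1.65) and Slc38a4 (0.97) rose and were named after their values were seen.

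Chromatin and RNA-binding genes that are high in fetal tissue rose in 9 of 16 cases tested and fell in 1, a list whose median log2 fold change of 0.56 was -0.02 under scaling on basal keratinocyte genes. Uhrf1, which carries DNA methylation through replication, stood at 240.3, 209 and 202 CPM at E17.5 and at 45.2 and 39.7 CPM in the HFD libraries (log2 fold change 2.35, SE 0.14). Its fellow Hells, a chromatin remodeler, rose by 1.99 (SE 0.13), and Dnmt3a, a DNA methyltransferase, by 1.77 (SE 0.13). Sox4 and Hmga1 had overlapping groups. The one that fell was Arid3b (-1.42), named after its value was seen. Lin28a, Lin28b, Trim71, Sall4 and Afp had too few reads to be tested.

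Hox genes, which record the position of a skin region along the body, moved both ways: of 29 tested 15 rose and 11 fell, and without those that overlap a gene on the other strand 8 rose and 8 fell. Hoxa5 stood at 26.01, 21.8 and 23.3 CPM at E17.5 and at 11.2 and 6.45 CPM in the HFD libraries, and Hoxa7 rose by 1.27 (SE 0.24). The largest falls were of members of groups 9 and 10. Hoxa10 had no read there and 3.59 and 4.29 CPM in the HFD libraries, at least 171-fold lower, and Hoxd9 stood at 0.259, 0.247 and 0.226 CPM, against 14.6 and 13.7 CPM. The sources used here do not give the body site of either group.

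Of 37 epidermal transcription factors 15 were higher and 12 lower, against 30.8 and 34.4% of all genes tested, with a median log2 fold change of 0.23 that was -0.39 under scaling on basal keratinocyte genes. Hopx, a homeodomain-only cofactor of differentiated keratinocytes and of hair stem cells, stood at 15.5, 15.5 and 17.3 CPM at E17.5 and at 369.6 and 332 CPM in the HFD libraries (log2 change of -4.44 with an SE of 0.12, and adjusted p = 2.14e-09 by edgeR). Klf4, which drives barrier formation, stood at 396, 449 and 335 CPM at E17.5 and at 609 and 649.8 CPM in the HFD libraries (log2 fold change -0.68, SE 0.14), opposite in sign to Klf5. Rxra, the retinoid X receptor, rose by 1.14 (SE 0.17). Hopx and Trp63 overlap genes on the other strand.

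Skint genes encode keratinocyte proteins, some of which shape the gamma delta T cells of mouse skin. Of 11 of them 8 fell and 1, Skint7 (1.07, named after its value was seen), rose. Skint9 (chromosome 4, 112385969 to 112433985, minus strand) stood at 29.4, 20.4 and 21.9 CPM at E17.5 and at 235 and 201 CPM in the HFD libraries (log2 fold change -3.19, SE 0.17). Skint3 fell by 1.22 (SE 0.15), with groups at 31.2, 37.3 and 42.9 CPM against 95.3 and 78.0 CPM.

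Interferon-stimulated genes, the antiviral set that interferons switch on, were low at E17.5. Of 25 members 20 fell and none rose (2 rose without HFD replicate 2, and 2 with library totals as the scale), 19 past the 2-fold test, with a median log2 fold change of -5.12, and the sums were 98.3, 104 and 98.4 CPM at E17.5 and 199 and 278 CPM in the HFD libraries. Stat2, a transcription factor that carries the signal, was not called: it stood at 16.9, 16.4 and 15.1 CPM at E17.5 and at 10.1 and 14.0 CPM in the HFD libraries (edgeR adjusted p = 0.0664). Irf9, its partner, fell by 0.63 (SE 0.15). Iigp1, an interferon-induced GTPase, had 1 read at E17.5 in all, and its level was 821 times higher in the HFD libraries, where it stood at 5.29 and 7.30 CPM (exact 95% counting interval 146 to 32497). Stat2, Mx2, Ifih1 and Ddx58 were among the 5 that were not called. Marker sums of blood-derived and dermal cells were lower at E17.5 too, and their part in this fall was not tested.

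Of the 25 interferon members 18 had a promoter in the RefSeq table, and 12 of these (66.7%) held the letters of the interferon-stimulated response element (GAAA, any 2 bases, GAAA, on either strand), against 3.60% of the 11358 tested genes with a promoter and 3.44% of all 32851 promoters. The members were listed for their known response to interferon, so the share describes the list and not the fall. The following stretches of 100 bases, from RefSeq on GRCm38.p6, show the element in capitals in 3 genes chosen because they hold it; overlapping copies run together.
Gbp3, chr3:142559954-142560053, plus strand: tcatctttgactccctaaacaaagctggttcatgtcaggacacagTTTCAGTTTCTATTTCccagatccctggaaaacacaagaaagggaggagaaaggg
Gbp2, chr3:142620559-142620658, plus strand: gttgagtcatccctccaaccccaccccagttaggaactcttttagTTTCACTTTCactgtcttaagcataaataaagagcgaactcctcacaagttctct
Ifit3, chr19:34583328-34583427, plus strand: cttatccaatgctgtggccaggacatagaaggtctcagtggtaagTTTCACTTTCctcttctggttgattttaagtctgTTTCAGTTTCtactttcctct
Gbp2 and Gbp3 are guanylate-binding proteins, and Ifit3 belongs to a family that binds foreign RNA.

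Antigen presentation fell with them. Of 15 genes of MHC class I and antigen processing tested 11 fell and none rose. B2m, the light chain of MHC class I, stood at 37.97, 38.5 and 51.0 CPM at E17.5 and at 179 and 242 CPM in the HFD libraries (log2 fold change -2.31, SE 0.17), and the heavy chain H2-D1 fell by 1.24 (SE 0.13). B2m overlaps Patl2 on the other strand. H2 genes have near-identical copies, so their counts are less certain. Without the genes that overlap another on the other strand, 4 of this list fell. All 16 complement and secreted plasma protein genes tested fell past the 2-fold test, among them Serping1, the C1 inhibitor, at 0.0597, 0 and 0.0452 CPM at E17.5 and 35.2 and 56.2 CPM in the HFD libraries.

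Most members of the glucocorticoid, clock and retinoid lists were lower at E17.5. Dermal marker sums were lower there too, and their part in these falls was not tested. Of 16 glucocorticoid response genes 13 fell, 10 past the 2-fold test, and 1 rose, the receptor gene Nr3c1 (0.92, named after its value was seen). Klf9, a target of the hormone, stood at 5.45, 6.18 and 6.08 CPM at E17.5 and at 66.4 and 74.9 CPM in the HFD libraries (log2 fold change -3.58, SE 0.13), and Fkbp5, a co-chaperone of the receptor, fell by 0.91 (SE 0.10). Of 18 clock genes 12 fell and 4 rose (2 without E17.5 replicate 1 or without HFD replicate 1): Per2 fell by 1.68 (SE 0.19), and Cry1 rose by 0.62 (SE 0.14) along with Per3 (0.64), Bhlhe40 (0.37) and Bhlhe41 (1.05), named after their values were seen. The time of day of sampling is not given. Of 18 retinoid genes tested 11 fell, with Cyp26b1, which degrades retinoic acid, at 0.318, 0.302 and 0.271 CPM at E17.5 and 66.9 and 75.8 CPM in the HFD libraries, while the receptors Rarg (0.89, SE 0.17) and Rxra rose. The summed levels of the retinoid list overlapped, at 816, 764 and 651 CPM at E17.5 and 666 and 631 CPM in the HFD libraries. Of 19 glutathione transferase and xenobiotic genes tested 11 fell and 5 rose (3 without HFD replicate 1). The largest rise there was Gsta4 (2.34), named after its value was seen, beside Gsta3 (1.69), Nqo1 (0.79), Gsto1 (0.85) and Aldh3b2 (0.69), of which Aldh3b2 was not called without HFD replicate 1 (edgeR adjusted p = 0.0592).

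Genes that respond to handling were given for what they show about the libraries. Of 21 immediate early genes 13 fell and 1 rose. The E17.5 libraries differed among themselves: Fos stood at 315, 278 and 148 CPM there and at 136 and 168 CPM in the HFD libraries, so the groups overlapped, and Jun stood at 341, 307 and 173 CPM, against 119.5 and 131 CPM. The rise of Jun (edgeR adjusted p = 0.0104) was not called without HFD replicate 1 or 2 (edgeR adjusted p = 0.0825 and 0.0583), and 6 of these genes rose without E17.5 replicate 3. Of 14 heat shock chaperones 8 rose and 1 fell, with a median log2 fold change of 0.46 that was -0.12 under scaling on basal keratinocyte genes. Hspa1b, an inducible Hsp70, stood at 324, 328 and 294 CPM at E17.5 and at 57.2 and 56.0 CPM in the HFD libraries (log2 fold change 2.48, SE 0.12), and Hspb8, a small heat shock protein, fell by 2.25 (SE 0.12). The E17.5 cells went through trypsin and a sorter and the HFD tissue was ground frozen; the part of that handling was not tested.

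Ribosomal protein genes were mostly lower. Of 78 cytosolic ribosomal protein genes tested 75 fell, 30 past the 2-fold test, and 1 rose (Rpl24, 0.84, named after its value was seen), and their share of the counts was 6.70 to 8.32% in E17.5 libraries, against 13.7 to 15.3% in HFD libraries. Rplp0, a stalk protein, stood at 2405, 2668 and 2633 CPM at E17.5 and at 4581 and 4323 CPM in the HFD libraries (log2 fold change -0.79, SE 0.13). These genes are short, and with the trend on exon length removed 68 fell, with a median log2 fold change of -0.94 in place of -1.16. Mitochondrially encoded genes divided: mt-Cytb fell to 3444, 4395 and 5633 CPM at E17.5, against 9254 and 12182 CPM. The gene mt-Nd6, which lies on the other strand than its neighbours, rose (257, 324 and 406 CPM against 35.1 and 47.3 CPM, log2 fold change 3.00, SE 0.23). It overlaps mt-Nd5, and what share of its reads came from the opposite strand was not tested.

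Beyond the lists, the 15 largest rises among genes above 50 CPM included Ak4 and Tfrc. Ak4, a mitochondrial adenylate kinase, stood at 89.6, 102 and 119 CPM at E17.5 and at 6.43 and 5.84 CPM in the HFD libraries (log2 change of 4.07 with an SE of 0.17, and adjusted p = 3.29e-08 by edgeR). Tfrc, the transferrin receptor, stood at 250.4, 251 and 252 CPM at E17.5 and at 28.9 and 22.7 CPM in the HFD libraries (log2 fold change 3.28, SE 0.14). The glycolytic enzyme genes Hk2 (2.87, SE 0.16) and Pfkl (2.604, SE 0.15), the lactate carrier Slc16a1 (2.53, SE 0.13), the glycogen regulator Ppp1r3b (3.04, SE 0.14) and the cystine carrier Slc7a11 (3.06, SE 0.29) rose with them. The transcription factor Sox6 rose by 2.92 (SE 0.15). Further rises were of Cyp2w1 (2.86), Lars2 (2.80) and Mlec (2.55), and of Rps26-ps1 (4.96) and Gm23935 (3.10), a pseudogene and a noncoding RNA gene whose reads may be shared with near-identical copies. The 15 largest falls were of Actc1, Acta1, Adipoq, Myl1, Dpt, Twist2, Des, Myh8, Mcpt4, Ckm, Eif2s3y, Nnmt, Aspn, Galnt15 and Car3, genes of muscle, dermis, fat, mast cells and the Y chromosome among them. Of these, Myh8 and Myl1 were not called without E17.5 replicate 1 (edgeR adjusted p = 0.122 and 0.0746), nor Des without E17.5 replicate 2 (edgeR adjusted p = 0.0771).

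The same contrast was run in the other libraries, labelled Klf5-/-, of which none entered the comparison above. Klf5 RNA does not bear out their label: its counts were 6934, 7211 and 6501 in the E17.5 libraries labelled Klf5-/-, against 8376, 6609 and 6624 in E17.5 Klf5+/-, and 2953 and 4956 in the HFD libraries labelled Klf5-/-, against 2523 and 1575 in HFD Klf5+/-. These counts were not scaled to depth. The E17.5 libraries labelled Klf5-/- held 34486898, 38597737 and 37707824 counts on genes, against 46445546, 34965243 and 41485948 in E17.5 Klf5+/-. The HFD libraries held 31819010 and 44336888 where labelled Klf5-/-, against 36984884 and 34286575 in Klf5+/-. Whether gene-level counts would detect the deletion is not known, since the deleted part is not given in the labels. Of 16057 genes tested there, 3994 were higher (24.9%) and 4229 lower (26.3%) at E17.5. Of the genes called higher in the Klf5+/- contrast 61.6% were also called higher there (78.6% of those called there), and of the genes called lower 56.8% (76.5%); 104 and 54 were called in the opposite direction. The HFD libraries labelled Klf5-/- held less dermal RNA, with fibroblast sums of 2288, 2452 and 2306 CPM at E17.5, against 8300 and 2168 CPM in the HFD libraries, so HFD replicate 2 lay below every E17.5 library. Its endothelial sum was above theirs, with 6.22, 7.33 and 6.68 CPM at E17.5, against 127 and 25.2 CPM in the HFD libraries, and so were its skeletal muscle and adipocyte sums.

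The cornified envelope fell there as well, in 36 of 40 genes tested (median log2 fold change -5.30), and so did acylceramide genes (28 of 31, median -1.99), ribosomal protein genes (76 of 78) and Skint genes (10 of 11), while 39 of 40 cell cycle genes rose (median 1.34). Suprabasal and cholesterol genes were mostly not higher there: 2 of 17 suprabasal genes rose and 9 fell, and 3 of 24 cholesterol genes rose and 8 fell. Krt1, with a log2 fold change of -0.15 there (edgeR adjusted p = 0.66), differed between the contrasts, Klf5+/- minus Klf5-/-, by 2.20 (edgeR adjusted p = 0.00342 for the difference), Krt10 by 1.84 and Hmgcs1 by 1.05. The interferon list had 13 of 23 lower and 1 higher, with a median of -1.84. Over all 17260 genes tested for it, 2534 differed between the contrasts.

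**Figure D4:**
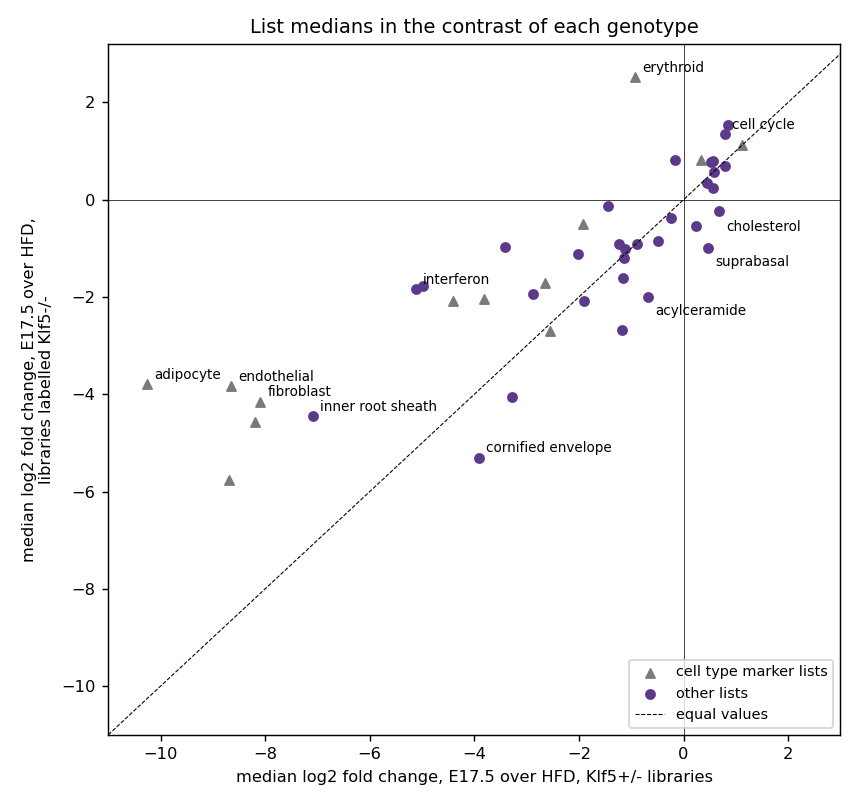
Median log2 fold change, E17.5 over HFD, of each list in the Klf5+/- libraries (horizontal) and in the libraries labelled Klf5-/- (vertical), with triangles for cell type marker lists, circles for the others and a dashed line for equal values. Fibroblast, endothelial and adipocyte medians lie at -8.09 to -10.25 in Klf5+/- and at -3.80 to -4.15 in the other contrast, and the suprabasal and cholesterol medians lie on opposite sides of 0.

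Peak lists of sorted wild type E17.5 epithelium, 1 sample for each assay, show the chromatin at the starts of these genes on the E17.5 side; no chromatin of the HFD group was compared. The title of the ATAC library, which maps open chromatin, says Het although its genotype is given as wild type. A peak of open chromatin lay within 1 kb of the start of 62.2% of the genes higher past the 2-fold test, 51.1% of those lower past it and 73.6% of all genes tested. For H3K27ac, a histone mark of active promoters, the shares were 42.7, 19.2 and 53.3%, and for KLF5 binding 14.2, 6.42 and 17.4%. Among genes at 1 CPM or more at E17.5 the ATAC shares were 72.2% for the higher and 72.6% for the lower class, against 84.5% of all, and the H3K27ac shares were 50.8 and 37.2%, against 65.8%. The KLF5 shares among these genes were 16.97 and 12.4%, against 21.4%, so the higher and lower classes lay closer together than without that limit. All 40 cell cycle and all 24 cholesterol genes had an ATAC peak, and 82.5 and 91.7% of them an H3K27ac peak. KLF5 peaks lay at 40 and 50% of them, against 17.4% of all genes tested and 21.4% of those at 1 CPM or more at E17.5. With a −log10 q of 5 or more the KLF5 shares were 15 and 33.3%, against 11.4 and 14.0%. The cell cycle share was then close to that of genes at 1 CPM or more. Of the cornified envelope genes 28.9% had an ATAC peak and 13.2% an H3K27ac peak, and of the inner root sheath genes 16.7 and 8.33%. No endothelial marker had an H3K27ac or KLF5 peak there.

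**Figure D5:**
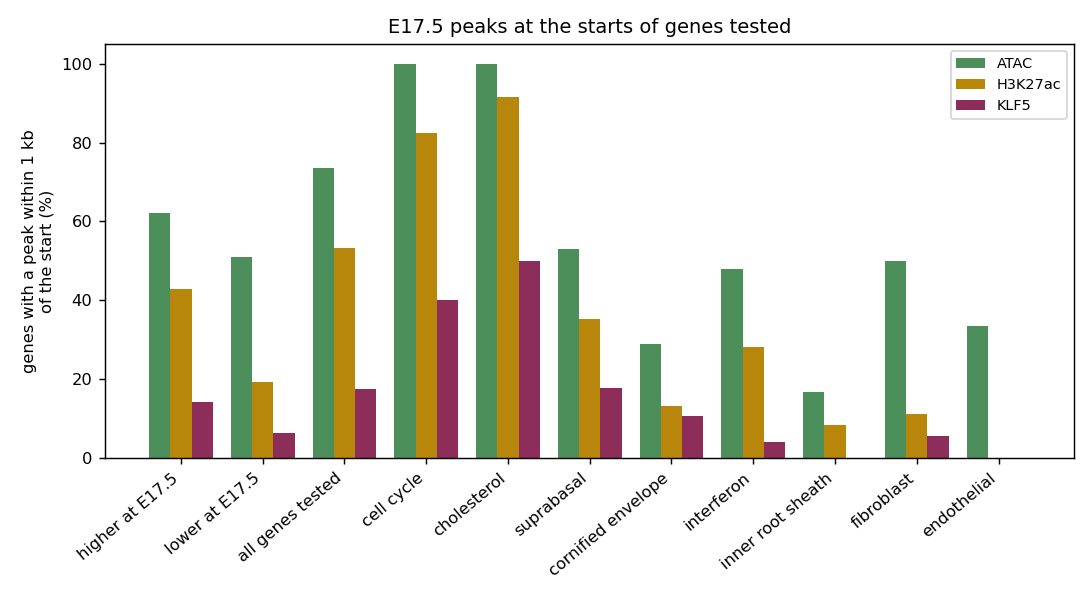
Share of genes (%) with an ATAC, H3K27ac or KLF5 peak of sorted E17.5 epithelium within 1 kb of their start, for genes higher or lower at E17.5 past the 2-fold test, all genes tested and 8 lists. Cell cycle and cholesterol genes have the highest shares plotted in all 3 assays (in KLF5 not so for cell cycle genes with a −log10 q of 5 or more), and cornified envelope, inner root sheath, fibroblast and endothelial genes lie below all genes tested.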

How the data were processed

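RNA was sequenced from 3 E17.5 Klf5+/- and 2 HFD Klf5+/- libraries. Counts per gene were deposited by the authors as whole reads, and the submitters' processing notes name STAR 2.6.0b, HTSeq and the mm10 (GRCm38) build. The RPKM values that the authors deposited beside them were checked against the counts and not tested. The peak lists deposited by the authors give a fold enrichment and a −log10 q for each peak; MACS2, Bowtie 1.0.1 and Bowtie2 2.2.3 are named in the submitters' processing notes. Rows that name no gene (unassigned and ambiguous reads) were left out; unassigned reads made up 13.5 to 14.8% in E17.5 libraries, against 13.8 to 15.7% in HFD libraries.

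Libraries were joined by Ensembl identifier (39179, of which 37607 had a name in the table used). Genes were filtered with filterByExpr (minimum count 10), scaled by TMM and tested with edgeR 4.0.16 (quasi-likelihood, robust, Benjamini-Hochberg over all genes tested) in R 4.3.3, with E17.5 over HFD as the contrast, and with the glmTreat test against 2-fold. The fitted genes had a biological coefficient of variation of 0.181. SE is the absolute log2 fold change over the square root of F. Alternatives used DESeq2 1.42.0 and limma 3.58.1. Where the E17.5 libraries held no read, bounds use a floor of 3 counts over the group; with 1 to 3 reads, ratios carry exact 95% counting intervals, which cover counting error only. Steps were tested on simulated data. Overlaps on the other strand used GenomicRanges 1.54.1, and promoter sequences are from RefSeq, GRCm38.p6. Of the genes tested, 5622 had such an overlap, and the text does not point it out for every gene it names.

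The members and lists were chosen with earlier results of these data known. Named genes are Klf5 and Itga6, the 15 largest rises and 15 largest falls among called genes of 50 CPM or more, and in each list the 3 highest members and the 3 called members of largest change; a few genes that this rule names are not reported here, and other names are said to be chosen after their values were seen. Krt85, Peg13, Trdc and Ahsp were not analysed here. The alternatives on basal keratinocyte scaling, on peaks of −log10 q of 5 or more and on starts within 200 bases were added after seeing the data.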

Additional observations from a re-analysis of the deposited data

Results flagged for a closer look

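The contrast of E17.5 over HFD was taken in the Klf5+/- libraries and, in different libraries, in those labelled Klf5-/-, and each value here is the log2 fold change of the Klf5+/- contrast minus that of the other. The naming rule gave 265 genes, and the 62 of them listed here passed the test of that difference (edgeR, adjusted p from 0.000976 to 0.0489). Over all genes 2534 of 17260 did. Many of the 62 were named for a large change in the Klf5+/- contrast, and that choice by itself favours a difference of the same sign. Their number and their grouping below are therefore a description and not a test. A positive value means that the E17.5 level, relative to HFD, was higher in Klf5+/- than in the libraries labelled Klf5-/-.

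The listed keratinocyte genes were mostly positive. The layer genes were Krt1 (2.20), Krt10 (1.84), Dsp (1.56), Serpinb2 (1.74), Asprv1 (1.57), Lor (1.29) and Fermt1 (0.48), and the integrin chain Itgb1 was negative (-0.75). Among lipid and cholesterol genes they were Elovl4 (1.85), Elovl1 (1.41), Sdr9c7 (1.59), Aloxe3 (1.88), Hmgcs1 (1.05), Idi1 (1.07) and Fabp5 (1.94). Regulators were Klf5 (1.06), Klf4 (1.18), Trp63 (0.68), Hopx (1.19), Cdkn1a (1.16) and Skint3 (1.35), and Klf9 was negative (-1.04). Metabolic and stress genes were Ak4 (1.57), Slc7a11 (1.24), Pfkl (1.09), Crabp2 (1.74), Gsto1 (1.36), Aldh3b2 (1.53) and Hspa1b (1.37), with Erbb3, a receptor of Schwann cells and keratinocytes, at 0.85.

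The listed genes of dermis, vessels and fat were negative. The mast cell gene Mcpt4 did not pass (-5.06, edgeR adjusted p = 0.371 for the difference). Those of dermis and fat were Dpt (-8.28), Col3a1 (-4.89), Sparc (-2.61), Mfap5 (-6.63), Postn (-1.44), Wif1 (-2.13), Bmp4 (-1.77), Trps1 (-1.80) and Lpl (-2.70). Thy1, which is on the T cell and NK list, was negative as well (-2.60). Vessel genes were Sox18 (-2.74), Pecam1 (-4.002), Lyve1 (-5.31) and Cldn5 (-7.28), and genes of melanocytes, mast cells and Merkel cells were Kit (-0.64) and Piezo2 (-1.62). Fibroblast marker sums in the HFD libraries were 8300 and 2168 CPM where labelled Klf5-/- and 28287 and 32638 CPM in Klf5+/-, and the part of that difference in these values was not tested.

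Hair keratin differences were Krt71 (-3.34), Krt25 (-3.96), Krt35 (-8.39) and Krt36 (-8.86). Imprinted and growth genes gave Igf2 (-1.15), Gnas (-1.06), Mirg (-4.31), Mest (-4.17) and Cdkn1c (-3.15). Immune and secreted genes gave Iigp1 (-7.29), Xaf1 (-4.76), Lcn2 (-6.70), Apoe (-1.06), Serping1 (-4.99) and Mfge8 (-1.69). Cyp1b1, of the xenobiotic list, was at -4.59. Dpt, Krt35, Krt36, Mirg, Iigp1, Xaf1 and Cldn5 had 1 to 3 reads in all at E17.5 in Klf5+/-, so the size of their differences depends on the prior count of the fit.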

How the results depend on the processing

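Of 265 genes that the naming rule gave, 265 kept their side of the threshold and their direction with DESeq2 size factors, 259 with limma-voom and 246 to 259 when 1 library was left out. Counts of genes higher and lower were 4929 and 5809 with DESeq2 size factors, 4746 and 5917 with upper-quartile scaling, 6429 and 4836 with library totals, 5116 and 6059 with DESeq2, and 5213 and 6224 with no low-count filter. Leaving out 1 library at a time gave 4373 to 4733 genes higher and 5035 to 5523 lower, and 930 to 1126 higher and 2812 to 3237 lower in the 2-fold test. In the libraries labelled Klf5-/- it gave 2740 to 4143 higher and 3265 to 4267 lower. With genes that overlap another on the other strand left out, 3246 were higher and 3808 lower among 10928 tested, fewer because fewer genes were tested. Scaling on basal keratinocyte genes gave 1138 higher and 7129 lower, and reversed Krt17 (-0.14), Hsp90ab1 (-0.17), Hspa8 (-0.0664) and Erbb3 (-0.00545). Medians that changed sign elsewhere were those of Hox genes (-0.09 with DESeq2, -0.07 with no filter, -0.16 without overlapping genes) and of histones (0.07 with library totals, 0.14 without HFD replicate 1), for which the cause was not tested.

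The replicate numbers are only names here: with 2 pairs, same-numbered libraries had deviations that correlated at -0.03 and -0.05. With the replicate number as a block 4668 genes were higher and 5247 lower, and 252 named genes kept their call. The spread of the HFD group rests on 1 difference between 2 libraries. Settings of the peak overlap were chosen after seeing the data: genes higher, genes lower and all genes had an H3K27ac peak in 38.6, 16.1 and 48.2% with a −log10 q of 5 or more, and in 38.9, 16.5 and 49.3% within 200 bases. KLF5 peaks lay at 15% of cell cycle and 33.3% of cholesterol genes with that −log10 q, against 14.0% of genes at 1 CPM or more at E17.5.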
